A study of Rattus norvegicus with 4 samples.

Results

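The proteasome genes of cultured rat aortic smooth muscle cells were compared after 24 hours with the cytokine interleukin-1 beta (IL-1b) and after vehicle. They were taken as all probe sets whose annotation gives exactly 1 gene symbol, beginning with Psma, Psmb, Psmc, Psmd, Psme or Psmf. That rule found 56 of the 31099 probe sets of the array, for 42 genes. For all 42 genes at least 1 probe set was bright enough to be tested, 52 probe sets in all, among 10000 genes tested. A gene is represented by its brightest tested probe set. The only probe sets of Psmb6 and Psme3 carry several symbols, so these genes have no value here, and Psma8 and Psmb11 were not analysed here. Psmc3ip and Psme3ip1 carry the prefix without being subunits, and they were kept among the 42 and counted apart by role.

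The cells came from Sprague-Dawley rats and were kept for 5 days with 10% serum and for 3 days without it. The IL-1b group (2 arrays) then received 2.5 ng/mL of the cytokine, and the vehicle group (2 arrays) received 0.1% bovine serum albumin, both for 24 hours. Each sample was read on its own array as MAS5 intensity, in arbitrary units scaled alike on every array. The labels number the samples and name no separate cultures or animals, so the p-values here rest on a spread among samples that may be no more than technical.

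The proteasome is the large protease that degrades ubiquitin-tagged proteins. Its barrel-shaped core has outer rings of alpha subunits and inner rings of beta subunits, 3 of which cut. A regulatory particle, made of a base with ATPases and a lid, binds the ends of the core, unfolds substrates and removes their ubiquitin. Interferons are known to induce replacement catalytic subunits, Psmb9 for Psmb6, Psmb10 for Psmb7 and Psmb8 for Psmb5, which form the immunoproteasome and favour the making of peptides for MHC class I.

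One IL-1b array, replicate 1, differed from the rest. Hybridisation controls, added in fixed amounts, read 3.50 times the vehicle mean on it, against 0.954 times on IL-1b replicate 2. Probe sets with a mean intensity over 3000 read higher on it than on IL-1b replicate 2, by a median of 0.28 (log2, 646 probe sets). Those under 300 also read higher, at 0.14 (11072 probe sets). The median was -0.088 between 1000 and 3000 (1853 probe sets) and -0.14 between 300 and 1000 (5054 probe sets). For the proteasome genes it was 0.12 over 3000 (9 genes), -0.20 between 1000 and 3000 (21) and -0.045 between 300 and 1000 (12). All 6 smooth muscle markers, Acta2 and Myh11 among them, were above background on all 4 arrays, and 5 of the 6 fell with IL-1b. Their summed intensity was 11538 and 8627 on the IL-1b arrays, against 29657 and 30398 on the vehicle arrays. Of 4 fibroblast markers 3 were tested, with a median log2 fold change of 0.94, and 1, Pdgfra, rose (1.80, limma adjusted p = 0.031), with 147.6 and 146.3 on the IL-1b arrays, against 31.7 and 46.3 on the vehicle arrays. The summed intensity of the 4 was 21084 and 13886 on the IL-1b arrays, against 14270.3 and 13978 on the vehicle arrays. That of 4 endothelial markers was 125 and 73.4 on the IL-1b arrays, against 50.2 and 81.6 on the vehicle arrays. Leukocytes carry the immunoproteasome without stimulation. Of 7 leukocyte markers, 4 and 4 were below background on IL-1b replicates 1 and 2, against 5 and 6 on vehicle replicates 1 and 2. Their summed intensity was 359 and 126 on the IL-1b arrays, against 155 and 139 on the vehicle arrays. At the brightest probe sets, Ptprc, the pan-leukocyte antigen, and Aif1 were above background on IL-1b replicate 1 alone, and Cd68 on IL-1b replicate 2 alone. Cd3e was above it on both IL-1b arrays and vehicle replicate 1. Csf1r, too dim to be tested, was above it on IL-1b replicate 2 and both vehicle arrays. Its values were 16.7 and 28.8 on the IL-1b arrays, against 55.5 and 49.8 on the vehicle arrays. Itgam and Laptm5 were below it on all 4 arrays. The part of these differences in the results was not tested.

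After IL-1b, the immunoproteasome subunits Psmb8 and Psmb9 fell, while 6 other proteasome genes rose. Those 6 were Psmd10, Psmd3, Psma6, Psmd4, Psme2 and Psmd8, by 1.51-fold to 2.53-fold. The other 34 genes did not pass an adjusted p of 0.05 in limma. Thus 6 of 42 genes (14.3%) were called higher, against 7.19% of all 10000 genes tested, and 2 of 42 (4.76%) lower, against 8.13% of all genes. Calls in either direction made up 15.3% of all genes. The median log2 fold change was 0.13 over the 42 genes and -0.0071 over all genes. In RNA from whole cultures, fewer cells of a type and less RNA per cell cannot be told apart. These counts rested on all 4 arrays. Without 1 IL-1b array more genes were called, and without 1 vehicle array fewer, among the 42 and among all genes alike. A group then held 1 array and took its spread from the other group, so those calls are not counted here.

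**Figure D1:**
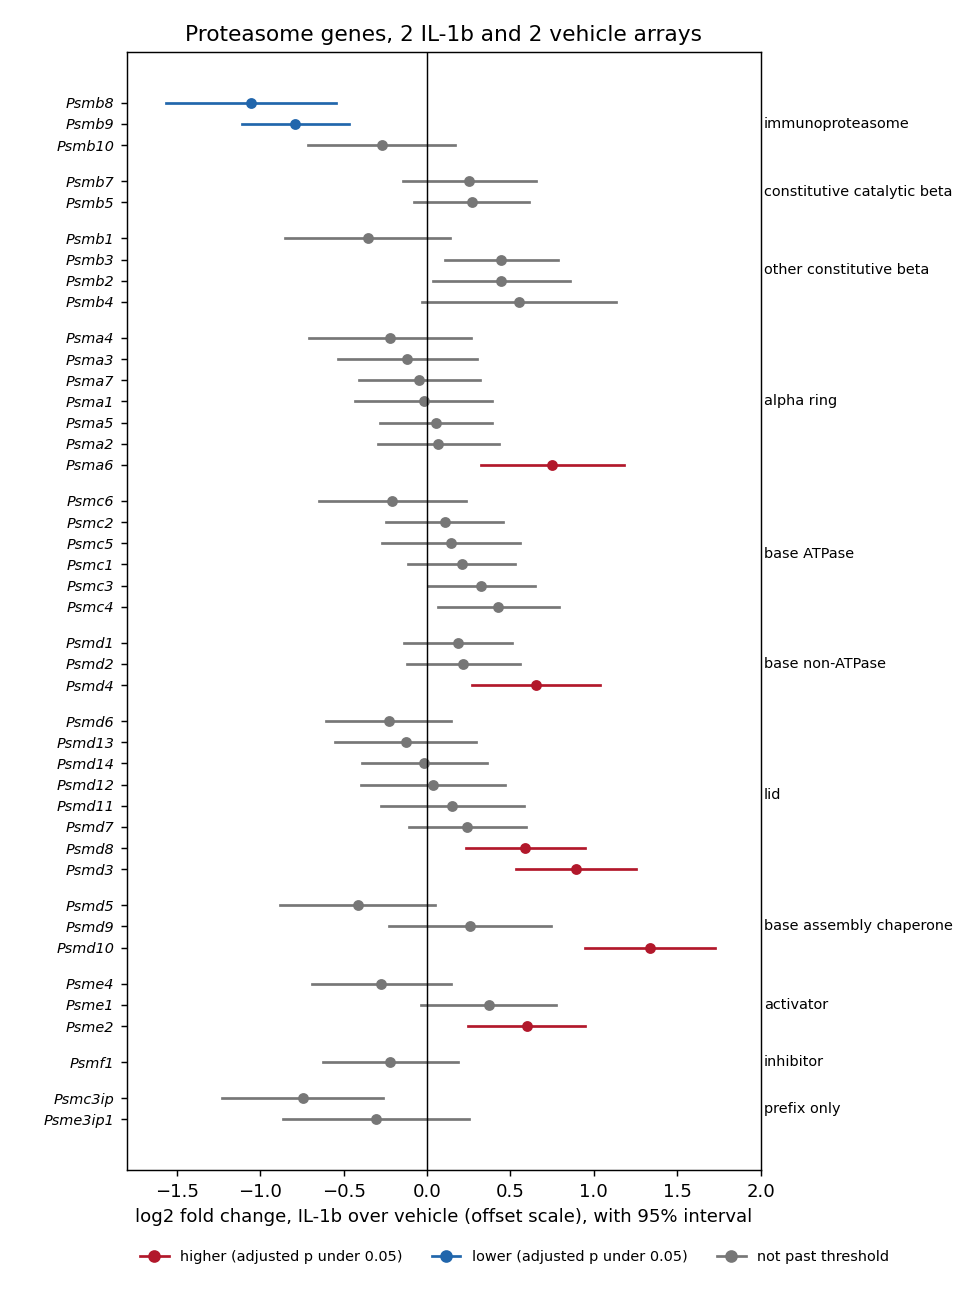
Each point is the log2 fold change of 1 of the 42 genes, IL-1b over vehicle, with its 95% interval from limma, grouped by role down the page and coloured by its call. Psmb8 and Psmb9 lie left of 0 and the 6 genes called higher right of it, while most intervals of the core, base and lid genes cross 0.

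Psmb8 encodes the immunoproteasome subunit with chymotrypsin-like activity. It read 399.8 and 270.2 on the IL-1b arrays, against 697 and 681 on the vehicle arrays. Both IL-1b arrays were below both vehicle arrays. Its mean was 335 ± 91.7 with IL-1b and 689 ± 11.0 with vehicle (SD, n = 2), a log2 fold change of -1.06 ± 0.21 (SE, limma adjusted p = 0.020), 2.08-fold lower. Psmb9 replaces the caspase-like subunit, and its gene lies beside Tap1. It read 1399 and 1421 on the IL-1b arrays, against 2422 and 2464 on the vehicle arrays, groups that were far apart beside the spread within each. Psmb9 changed by -0.79 ± 0.14 on the log2 scale (SE, limma adjusted p = 0.010), 1.73-fold lower. Without vehicle replicate 1 or 2 neither gene passed, with adjusted p = 0.059 and 0.057 for Psmb8 and 0.15 and 0.18 for Psmb9, at log2 fold changes of -1.04, -1.07, -0.80 and -0.78. Without an intensity trend in the variance the adjusted p was 0.11 for Psmb8 and 0.095 for Psmb9, and with arrays centred on their medians it was 0.049 and 0.074.

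Psmb10, which replaces the trypsin-like subunit, did not pass. It read 519.75 and 693 on the IL-1b arrays, against 768 and 685 on the vehicle arrays, and IL-1b replicate 2 lay between the vehicle arrays. The log2 fold change of Psmb10 was -0.27, with a 95% interval of -0.71 to 0.17 (limma adjusted p = 0.40). The value depended on the IL-1b array used, at -0.067 without replicate 1 and -0.48 without replicate 2.

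**Figure D2:**
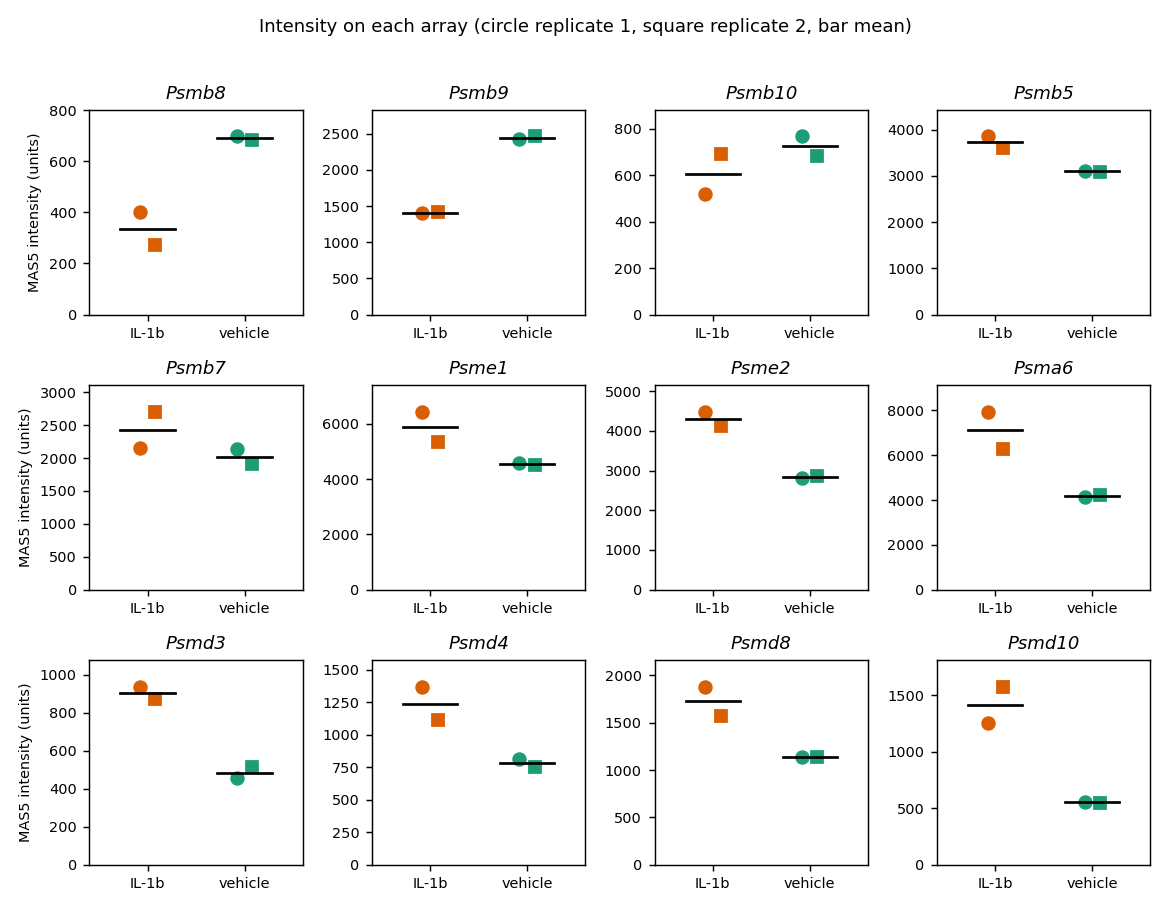
Intensity (MAS5 units, axes from 0) of 12 genes on each array, IL-1b left of vehicle, with circles for replicate 1, squares for replicate 2 and bars for the mean. The IL-1b points lie below the vehicle points for Psmb8 and Psmb9, overlap them for Psmb10, and lie above them for the other 9 genes.

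The constitutive catalytic subunits that Psmb8 and Psmb10 replace did not pass the test. Psmb5, the chymotrypsin-like subunit, read 3856 and 3605 on the IL-1b arrays, against 3117 and 3075 on the vehicle arrays, so that the IL-1b arrays were both higher. The log2 fold change of Psmb5 was 0.27, with a 95% interval of -0.08 to 0.61 (limma adjusted p = 0.29). Psmb7, the trypsin-like subunit, read 2148 and 2708 on the IL-1b arrays, against 2139 and 1909 on the vehicle arrays. There IL-1b replicate 1 stood just above vehicle replicate 1, and the log2 fold change was 0.25, with a 95% interval of -0.15 to 0.66 (adjusted p = 0.38).

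Within each array, Psmb8 was then set against Psmb5, and Psmb10 against Psmb7. The log2 ratio of Psmb8 to Psmb5 was -3.25 and -3.71 on the IL-1b arrays, against -2.15 and -2.17 on the vehicle arrays, a change of -1.32. The log2 ratio of Psmb10 to Psmb7 was -2.04 and -1.96 on the IL-1b arrays, against -1.47 and -1.47 on the vehicle arrays, a change of -0.53. The groups did not overlap in either ratio, and the exact two-sided permutation p was 0.333 for each, which is the smallest that 2 against 2 arrays allow. The ratio of Psmb9 to Psmb6 could not be formed. All 3 immunoproteasome genes were also measured against the median of the 13 constitutive core genes, by centring every array on it and refitting all probe sets. On that scale Psmb8 changed by -1.19 ± 0.21 (log2, SE, limma adjusted p = 0.012) and Psmb9 by -0.93 ± 0.16 (0.0094). Psmb10 did not pass, at -0.41 ± 0.22 (0.28). This scale was chosen after the data were seen.

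**Figure D3:**
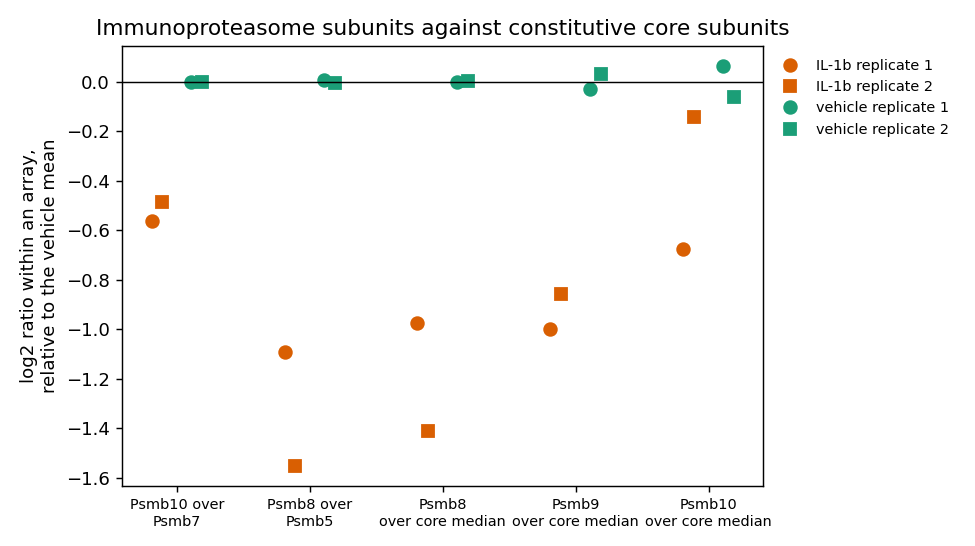
Log2 ratios within an array, with the vehicle mean of each ratio set to 0, for Psmb10 over Psmb7, Psmb8 over Psmb5 and the immunoproteasome genes over the median of 13 constitutive core genes. IL-1b arrays (orange, left in each pair) lie below the vehicle arrays (green) in all 5 ratios, and for Psmb10 over the core median IL-1b replicate 2 is close to them.

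Psmb8 and Psmb9 are neighbours on rat chromosome 20, in the order Tap2, Psmb8, Tap1 and Psmb9 of the current RefSeq annotation. Tap1 and Tap2 form the transporter that carries proteasome-made peptides into the endoplasmic reticulum. Tap1 read 462 and 395 on the IL-1b arrays, against 625 and 657 on the vehicle arrays, and missed the threshold (log2 fold change -0.58, limma adjusted p = 0.063). Tap2, on the other side of Psmb8, read 267 and 216 on the IL-1b arrays, against 211 and 196 on the vehicle arrays (log2 fold change 0.24, adjusted p = 0.54). The pair next outward in the order, RT1-DOb and RT1-DMb, encode class II accessory chains, and RT1-DMb did not pass either (log2 fold change 0.25, adjusted p = 0.38). RT1-Bb, a class II chain beyond RT1-DOb, rose by 0.92 (limma adjusted p = 0.0093).

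The promoter windows of the immunoproteasome genes and of the activator Psme2 are printed to show the letters that interferon-driven factors are known to bind. Each runs from 250 bases before to 50 bases after the gene start, 5′ to 3′ on the gene's strand, from RefSeq on build GRCr8. They lie at chr20:4656982-4657281 (minus strand) for Psmb8, chr20:4668750-4669049 (plus strand) for Psmb9, chr19:50743243-50743542 (minus strand) for Psmb10 and chr15:33052702-33053001 (minus strand) for Psme2. Psmd3, at chr10:84139688-84139987 (plus strand), was added after its matches were seen. Capitals mark matches to the ISRE core, which is GAAA, any 2 bases and GAAA again (interferon regulatory factors), the GAS core TTCNNNGAA (STAT dimers) or the kappaB consensus (NF-kB), on either strand.
Psmb8: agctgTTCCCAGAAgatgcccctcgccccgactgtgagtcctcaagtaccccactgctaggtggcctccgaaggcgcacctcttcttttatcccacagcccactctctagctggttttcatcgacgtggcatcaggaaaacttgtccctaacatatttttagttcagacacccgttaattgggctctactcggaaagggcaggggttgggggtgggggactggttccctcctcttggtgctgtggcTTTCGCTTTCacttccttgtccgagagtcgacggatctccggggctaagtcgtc
Psmb9: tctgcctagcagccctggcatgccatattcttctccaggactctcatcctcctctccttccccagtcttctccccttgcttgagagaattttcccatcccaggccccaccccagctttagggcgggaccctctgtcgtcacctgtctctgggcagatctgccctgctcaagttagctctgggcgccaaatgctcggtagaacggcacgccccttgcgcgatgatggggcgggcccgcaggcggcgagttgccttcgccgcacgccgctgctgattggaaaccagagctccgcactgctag
Psmb10: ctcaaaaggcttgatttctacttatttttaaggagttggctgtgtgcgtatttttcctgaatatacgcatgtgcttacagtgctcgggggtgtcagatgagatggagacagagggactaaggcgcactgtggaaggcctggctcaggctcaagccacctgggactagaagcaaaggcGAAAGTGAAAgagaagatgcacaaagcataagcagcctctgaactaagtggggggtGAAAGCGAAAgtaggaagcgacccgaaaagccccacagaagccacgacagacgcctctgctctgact
Psme2: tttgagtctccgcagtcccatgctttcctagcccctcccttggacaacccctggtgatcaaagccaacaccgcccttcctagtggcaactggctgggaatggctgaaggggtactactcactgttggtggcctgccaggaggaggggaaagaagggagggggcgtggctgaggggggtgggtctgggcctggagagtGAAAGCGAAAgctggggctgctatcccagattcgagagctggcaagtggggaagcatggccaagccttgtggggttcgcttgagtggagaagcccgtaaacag
Psmd3: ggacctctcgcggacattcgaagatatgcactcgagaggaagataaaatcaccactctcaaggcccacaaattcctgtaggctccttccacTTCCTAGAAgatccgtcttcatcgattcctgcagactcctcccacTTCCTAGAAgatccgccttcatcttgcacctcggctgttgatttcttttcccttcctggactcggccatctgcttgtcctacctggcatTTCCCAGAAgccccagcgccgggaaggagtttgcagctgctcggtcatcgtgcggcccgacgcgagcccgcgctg

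The Psmb10 window holds 2 ISRE cores, which start 73 and 17 bases before the gene start. The Psmb8 window holds 1, read on the other strand, 4 bases before the start, and a GAS core 245 bases before it. The Psme2 window holds 1 ISRE core, 53 bases before the start, and the Psmd3 window holds 3 GAS cores. The Psmb9 window has no match to these motifs, and no matches in the printed windows overlapped. A promoter was found for 38 of the 42 genes, with Psma7, Psmd6, Psmd12 and Psmd14 unmatched. The ISRE core was in 6 of the 38 windows, against 3.92% of 33465 rat promoters of the same length. Besides Psmb8, Psmb10 and Psme2 the genes were Psma4, Psmb3 and Psmd7. So 1 of 6 genes called higher, 1 of 2 called lower and 4 of 30 not past the threshold carried it. The GAS core was in 4 of 38 windows, against 8.88% of all promoters, and the kappaB consensus in 1, that of Psmb2, against 4.18%. The core of the antioxidant response element, TGACNNNGC, to which the proteasome regulators NRF1 and NRF2 are known to bind, was in 7 of 38, against 12.1%, and the NF-Y box CCAAT in 21 of 38, against 37.5%.

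Of the alpha ring, which gates the entry to the core, 1 of 7 genes rose, against 7.19% of all genes, and 6 did not pass. The median log2 fold change was -0.020. Psma6 read 7952 and 6301 on the IL-1b arrays, against 4154 and 4246 on the vehicle arrays, and both IL-1b arrays were higher. It rose by 0.75 ± 0.18 (log2, SE, limma adjusted p = 0.037), and missed the threshold without vehicle replicate 1 or 2 (0.45 and 0.43). Psma4, the lowest of the ring, was at -0.22 (adjusted p = 0.53), and the 6 alpha genes other than Psma6 had log2 fold changes of -0.22 to 0.068.

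Among the beta subunits without cutting sites, 0 of 4 passed in limma (2 at an unadjusted p under 0.05). Of all genes 7.19% were higher and 8.13% lower. The median log2 fold change of the 4 was 0.45. Psmb4 read 7318 and 4467 on the IL-1b arrays, against 4061 and 3742 on the vehicle arrays. The high value came from IL-1b replicate 1, and the log2 fold change was 0.55 (95% interval -0.03 to 1.14, adjusted p = 0.21). Psmb2 read 4152 and 3219 on the IL-1b arrays, against 2647 and 2717 on the vehicle arrays (log2 fold change 0.45, adjusted p = 0.15). Psmb3 was also at 0.45 (0.093), and with quantile normalization it passed. Psmb1 was at -0.36 (0.33), so the 4 genes did not share a direction. Over the 13 constitutive core genes the median was 0.068.

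In the base of the regulatory particle, 1 of 9 genes rose, against 7.19% of all genes. None of the 6 ATPases, which unfold substrates, passed in limma (2 at an unadjusted p under 0.05), and their log2 fold changes ran from -0.21 for Psmc6 to 0.43 for Psmc4. The 3 probe sets of Psmc6 were alike, at -0.21 to -0.15. Psmd4, a ubiquitin receptor, read 1370.1 and 1111 on the IL-1b arrays, against 817 and 749.97 on the vehicle arrays. It rose by 0.65 ± 0.16 (log2, SE, limma adjusted p = 0.041), with both IL-1b arrays above both vehicle arrays. The scaffold subunits Psmd1 and Psmd2 did not pass, at 0.19 and 0.22.

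In the lid, which holds the deubiquitinase Psmd14, 2 of 8 genes rose, against 7.19% of all genes. Psmd3 read 936 and 874 on the IL-1b arrays, against 456 and 513 on the vehicle arrays, a rise of 0.90 ± 0.15 (log2, SE, limma adjusted p = 0.0098) or 1.86-fold. Psmd8 read 1880.1 and 1569 on the IL-1b arrays, against 1134 and 1143 on the vehicle arrays, a rise of 0.59 ± 0.15 (0.046). In both genes the groups were well apart beside the spread within them, yet neither passed without vehicle replicate 1 or 2 (Psmd3 at 0.13 and 0.051, Psmd8 at 0.40 and 0.39). The same holds for Psmd4, at 0.22 and 0.38. Psmd14 was at -0.015, and Psmd6, the lowest of the lid, at -0.23 (adjusted p = 0.40). Psmd11 gave different answers by probe set. The brightest read 1508 and 2052 on the IL-1b arrays, against 1624 and 1544 on the vehicle arrays (log2 fold change 0.15, adjusted p = 0.63). Another read 1194 and 1342 on the IL-1b arrays, against 796 and 731 on the vehicle arrays (0.73, adjusted p = 0.020), and passed. Counted by probe set, 7 of the 52 tested were called higher, against 6.32% of all 18625, and 2 lower, against 7.11%. Over the 30 core, base and lid genes 4 rose and 0 fell, against 7.19% higher and 8.13% lower of all genes. Their median log2 fold change was 0.17, which turned to -0.036 with arrays centred on their medians.

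Psmd10 (gankyrin), 1 of 3 chaperones that help assemble the base, had the largest rise among the 42 genes. It read 1249 and 1575 on the IL-1b arrays, against 558 and 545 on the vehicle arrays. Both IL-1b arrays were more than 2 times either vehicle array. It rose by 1.34 ± 0.16 (log2, SE, limma adjusted p = 0.0025) or 2.53-fold, and 95.3% of all genes tested had a lower log2 fold change. It passed without each array in turn, and missed the threshold with no intensity trend (0.051) and with median centring (0.091). The other chaperones did not pass. Psmd5 read 783 and 1124 on the IL-1b arrays, against 1297 and 1211 on the vehicle arrays (log2 fold change -0.42, 95% interval -0.88 to 0.05, adjusted p = 0.23), and Psmd9 was at 0.26 (0.46).

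The activators bind the core in place of the regulatory particle. Psme1 and Psme2 form the PA28 ring, which interferon gamma is known to induce together with the immunoproteasome. Psme2 read 4485 and 4116 on the IL-1b arrays, against 2809.6 and 2863 on the vehicle arrays, and rose by 0.60 ± 0.15 (log2, SE, limma adjusted p = 0.041), 1.51-fold. It thus moved against Psmb8 and Psmb9. Psme2 missed the threshold without vehicle replicate 1 or 2 (0.52 and 0.50) and with no filter on dim probe sets (0.061). Psme1 read 6443 and 5354 on the IL-1b arrays, against 4587 and 4504 on the vehicle arrays. Its IL-1b arrays were both higher, but it did not pass (log2 fold change 0.37, 95% interval -0.03 to 0.77, adjusted p = 0.22). Psme4 (PA200), a nuclear activator, read 806 and 1069.96 on the IL-1b arrays, against 1091 and 1158 on the vehicle arrays. All 3 of its probe sets were at or below -0.24 and none passed in limma (adjusted p = 0.18 to 0.45; 1 had an unadjusted p under 0.05). Psmf1 (PI31), which inhibits the core in vitro, read 575 and 640.1 on the IL-1b arrays, against 789 and 635 on the vehicle arrays (log2 fold change -0.22, adjusted p = 0.45).

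Probe sets differed by brightness in their median change. The median log2 fold change of all 646 probe sets with a mean intensity over 3000 was 0.15, against 0.37 for the 9 proteasome genes in that range. Between 1000 and 3000 it was -0.054 over 1853 probe sets and 0.15 for 21 proteasome genes, and between 300 and 1000 it was -0.069 over 5054 probe sets and -0.12 for 12 proteasome genes. Of the 6 genes called higher, Psma6 and Psme2 had a mean intensity over 3000, Psmd4 and Psmd8 lay between 1000 and 3000, and Psmd10 and Psmd3, with the largest rises, between 300 and 1000. The part of brightness in the calls was not tested beyond quantile normalization, under which 7 genes were higher and 2 lower, with all 8 genes called here among them.

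**Figure D4:**
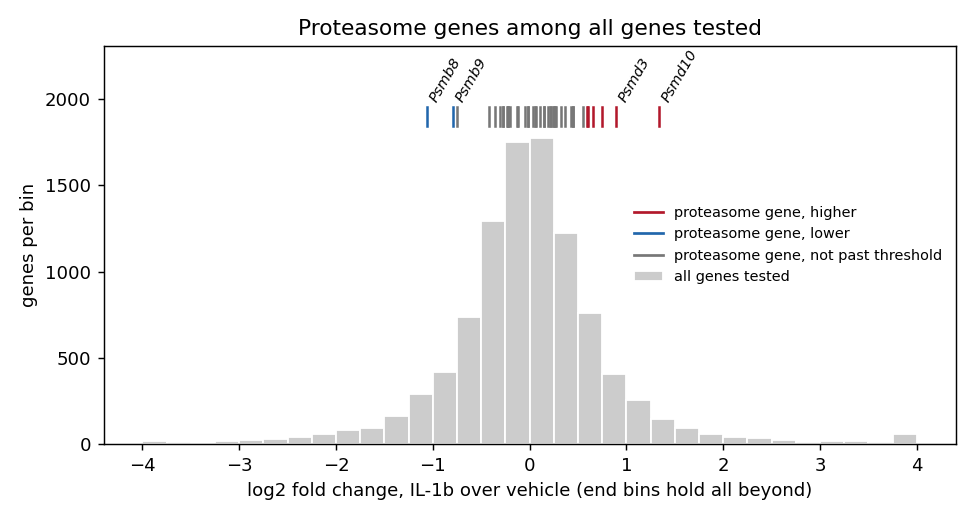
Grey bars count the 10000 genes tested by log2 fold change, IL-1b over vehicle, in bins of 0.25, and the ticks above them mark the 42 proteasome genes by call. Most ticks lie over the centre of the distribution, with Psmb8 the lowest and Psmd10 the highest.

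The 2 genes that carry the prefix only were both on the lower side. Psmc3ip, a partner of the meiotic recombinases, read 252 and 199 on the IL-1b arrays, against 380.2 and 379 on the vehicle arrays. It fell short of the threshold (log2 fold change -0.75, limma adjusted p = 0.056), though the groups were apart. Psme3ip1 was at -0.31 (adjusted p = 0.45).

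Of other genes that assemble, regulate or feed the proteasome, 25 of 29 listed were tested, and 1 rose, 1 fell and 23 did not pass, against 7.19% higher and 8.13% lower of all genes. The median log2 fold change of the list was 0.057. Nploc4 did not pass at its brightest probe set (log2 fold change 0.64, limma adjusted p = 0.056), but passed at the other (1.89, 0.0033). Nfe2l2 (NRF2), an oxidative stress factor, read 3319 and 3490.2 on the IL-1b arrays, against 1898 and 1872 on the vehicle arrays, and rose by 0.85 ± 0.14 (log2, SE, limma adjusted p = 0.0085). Ngly1, the enzyme that strips sugars from NRF1 so that it can act, read 283 and 654 on the IL-1b arrays, against 1108 and 1163 on the vehicle arrays, and fell by 1.39 (0.045). Its IL-1b arrays differed widely. Nfe2l1 (NRF1), which drives proteasome genes when the protease is blocked, did not pass, with 3 probe sets at 0.81 to 1.14 (adjusted p = 0.067 to 0.23). Pomp, the chaperone that builds the core, did not pass either, at 0.32 (0.28), and Psmg1 to Psmg4, the other core chaperones, lay between -0.16 and 0.21.

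Among regulators and MHC class I partners of the immunoproteasome, 16 of 19 genes were tested, of which 4 rose, 1 fell and 11 did not pass, against 7.19% higher and 8.13% lower of all genes. The median log2 fold change of the list was 0.16. The genes that rose were Jak2, Ifngr2, Ifngr1 and Pdia3, so both interferon gamma receptor chains and a kinase of that receptor were higher. Jak1, the other kinase of that receptor, did not pass at its brightest probe set (log2 fold change 0.084, limma adjusted p = 0.73). It did not pass at the other either (0.10, adjusted p = 0.70). Ifngr1 read 1828 and 1698 on the IL-1b arrays, against 874 and 938 on the vehicle arrays, and Jak2 read 517 and 419 on the IL-1b arrays, against 118 and 80.9 on the vehicle arrays. Their log2 fold changes were 0.96 and 2.19 (limma adjusted p = 0.0053 and 0.0023), with 1.61 for Ifngr2 (0.0041). Stat2, a transcription factor of interferon signalling, read 398 and 399.8 on the IL-1b arrays, against 1063 and 972 on the vehicle arrays, and fell by 1.34 (0.0016). Irf9 was at -0.46 at its brightest probe set (0.13) and -0.69 at the other (0.040). Irf1, which is needed for full Psmb9 induction by interferon gamma in mouse and human cells, read 498 and 611 on the IL-1b arrays, against 756 and 713 on the vehicle arrays (-0.41, adjusted p = 0.17). Of 10 listed genes for ubiquitin, its relatives and enzymes that attach them, 5 were tested. These were Isg15, Uba1, Uba6, Uba7 and Ube2l6, so no gene for ubiquitin itself was tested. Their median log2 fold change was 0.067. None rose and 1 fell, against 7.19% higher and 8.13% lower of all genes. That gene was Isg15, a ubiquitin-like protein that interferons induce. It read 984 and 1049.8 on the IL-1b arrays, against 4336 and 4515 on the vehicle arrays (log2 fold change -2.12, limma adjusted p = 1.8e-04).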

How the data were processed

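Total RNA of 2 IL-1b and 2 vehicle samples went onto Affymetrix arrays as biotin-labelled cRNA, per the labels' protocols. Intensity was deposited for each probe set as a linear, unlogged number. MAS5 made it, per the submitters' processing notes. Its version and options: not given in the sources used here. The arrays had been scaled alike, with a mean of 250.1 after trimming 2% of probe sets at each end, and were not rescaled. Before taking log2, an offset of 5.49 (the 10th percentile) was added, which understates changes of dim genes, and all log2 fold changes are on that scale, IL-1b over vehicle. Probe sets with a mean log2 value at or above the 40th percentile (18625) entered the model, in limma (version 3.58.1, under R 4.3.3; group means, eBayes with an intensity trend), and p-values were Benjamini-Hochberg adjusted over all of them, with a threshold of 0.05. The fit had 2 residual degrees of freedom and 4.91 from the prior. It was also run on simulated data, with independent noise at the spread of the model's own prior. These held no array like IL-1b replicate 1, so they cannot show how the fit behaves with such an array. The number of arrays limits the precision.

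Background on each array was the 95th percentile of 27 bacterial control probe sets, 76.7 and 18.8 on the IL-1b arrays and 29.4 and 26.9 on the vehicle arrays. Symbols came from the platform annotation (20826 probe sets with 1 symbol, 436 with several, 9780 not listed). The members and lists were chosen with earlier results of these data known. Named genes were the catalytic pairs, the activators, Psmf1, all genes past the threshold, the 2 largest rises and falls among the rest, and up to 4 genes of each further list. Others named were chosen after their values were seen. The alternatives tried were other offsets, scalings, filters, variance priors, thresholds, probe set choices, a replicate block and leaving out each array. Same-numbered arrays' deviations correlated at r = 0.091 over 18625 probe sets, and the labels do not say that a number marks a shared culture.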

Additional observations from a re-analysis of the deposited data

How the results depend on the processing

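The log2 fold changes of Psmb8 and Psmb9 were below 0 in all 16 alternatives for each, at -1.33 to -0.78 and -0.995 to -0.78. Many of these alternatives could not have turned the sign. Other filters, variance priors, probe set choices and the replicate block left both values unchanged. Leaving out 1 array cannot turn a difference between groups that do not overlap. With median centring, which moved the median of all genes to -0.21, 0 proteasome genes were higher (2 at an unadjusted p under 0.05 in limma) and 1, Psmb8, was lower, Psmb9 was at -0.995 (adjusted p = 0.074), and the median of the constitutive core, base and lid genes was -0.036; 3.37% of all genes were then higher and 6.16% lower, against 7.19% and 8.13%. Without the intensity trend 0 were higher and 0 lower (6 and 3 at an unadjusted p under 0.05), with Psmb8 at -1.06 (0.11) and Psmb9 at -0.79 (0.095). Of all genes 2.97% were then higher and 2.79% lower. With arrays centred on the constitutive core, added after the data were seen, 3 were higher and 3 lower, the core, base and lid median was 0.030, and 5.37% of all genes were higher and 9.25% lower. The core, base and lid median was 0.21 with quantile normalization and 0.21 with the dimmest probe set of each gene. An adjusted p under 0.01 left 2 higher and 0 lower, against 3.83% and 3.91% of all genes. Adding at least 2-fold to the main threshold left 1 higher and 1 lower, against 4.97% and 5.6%. With each array left out in turn, 1 to 16 genes were higher and 0 to 13 lower, Psmb8 ran from -1.33 to -0.78, Psmb9 from -0.80 to -0.78 and Psmb10 from -0.48 to -0.067, and the core, base and lid median from 0.11 to 0.21. With a replicate block 5 genes were higher, Psme2 missing at an adjusted p of 0.057, and 3 lower, with Psmc3ip added. The shares of all genes were 8.73% higher and 10.5% lower. The causes were not tested. None of the 18 proteasome genes whose fold changes were followed through the alternatives changed sign. Several alternatives alter only the filter or the variance, so they could not change one. The signs of the other genes were not followed. A lone remaining array was taken to have the spread of the other group's arrays.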

Other observations

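Psmd3 lies beside Csf3 on rat chromosome 10, with Med24 next to it, in the order Psmd3, Csf3 and Med24 of the current RefSeq annotation. Med24, a subunit of the Mediator complex, read 1129 and 1079.6 on the IL-1b arrays, against 532 and 471 on the vehicle arrays, and rose by 1.13 ± 0.15 (log2, SE, limma adjusted p = 0.0034). Csf3, a granulocyte growth factor, read 3021 and 3539 on the IL-1b arrays, against 2.43 and 27.7 on the vehicle arrays. Csf3 passed as well (limma adjusted p = 3.6e-04), though it was below background on vehicle replicate 1 and entered the test through its IL-1b values. Psmd3, Csf3 and Med24 were looked at after their values were seen, so their calls say nothing about the region as such. Of all genes tested, 7.19% were called higher. Thra, the thyroid hormone receptor gene on the other side of Med24, did not pass (adjusted p = 0.84 at its brightest probe set). On the other side of Psmd3, Gsdma was too dim to be tested. Ormdl3, further out on that side, did not pass at its brightest probe set (log2 fold change -0.31, limma adjusted p = 0.34) or at the other (1.94, 0.15).

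Psme2 and Irf9 lie on rat chromosome 15 with Rnf31 between them. Psme2 rose, Rnf31, a ubiquitin ligase subunit, did not pass (log2 fold change 0.07, limma adjusted p = 0.90), and Irf9 passed on the lower side at 1 of its 2 probe sets.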
